A study of Homo sapiens with 6 samples.

Results

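To explore how genes of the hypoxia response and of glycolysis were expressed after interleukin-1β (IL-1β) was silenced in oral cancer cells, 36 genes of these pathways were read out of expression arrays of Cal27 cells. They comprised transporters of glucose and lactate, glycolytic enzymes, regulators of glycolytic flux, the alpha subunits of the hypoxia-inducible factors (HIF), and targets and regulators of HIF. A probe set, a group of short array probes for 1 transcript, counted for a gene when the annotation listed that gene alone. Each gene was represented by its brightest probe set over the 6 arrays, and the other probe sets served as a check. Of the 36 genes, 34 had such a probe set and 33 of these lay above the filter on low signals on all 6 arrays. The array named 19775 genes in all, and 12320 lay above the filter. SLC2A3, a glucose transporter, lay below the filter on all 3 of its probe sets, and its brightest one read 10.3, 7.88 and 7.52 on the LV-shNC arrays and 6.89, 7.16 and 7.88 on the LV-shIL-1β arrays. No probe set listed SLC16A3, a lactate exporter, or CA9, a carbonic anhydrase on the cell surface, as its only gene, and both were not analysed here. Whether probe sets that list several genes cover them was not examined.

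Cal27 is an established human cell line from a squamous carcinoma of the tongue. A lentivirus delivered either a short hairpin RNA directed at IL-1β (LV-shIL-1β, 3 arrays) or a scrambled hairpin (LV-shNC, 3 arrays), and stable cells were selected in puromycin at 2 µg/mL for 2 weeks. The study describes 1 hairpin against IL-1β and culture in high-glucose medium under 5% CO2, and it names no low-oxygen step. Whether the arrays within a group represent separate cultures is not stated, and p-values therefore cover only the variation among these arrays, which may be technical.

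HIF is a pair of proteins, a regulated alpha subunit and a stable partner. In the presence of oxygen, prolyl hydroxylases of the EGLN family mark the alpha subunit for degradation, and an asparaginyl hydroxylase encoded by HIF1AN blocks its activity. When oxygen falls, HIF builds up and binds a short DNA element near genes for glucose uptake, glycolysis, blood vessel growth and the removal of mitochondria. Carcinoma cells often run glycolysis at a high rate with oxygen present, and inflammatory signals including IL-1β are known to act on HIF1A in other settings.

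IL1B, the target of the hairpin, fell on each of its 2 probe sets. The brighter read 2594 ± 92.6 for LV-shNC and 1578 ± 15.8 for LV-shIL-1β (SD, n = 3 arrays each), a log2 fold change of -0.72 ± 0.04 (SE, limma adjusted p = 2.46e-05). Of 12 squamous epithelial markers, 9 had a probe set that listed the gene alone, and all 9 lay above the filter. Of these, 0 rose and 3 fell (KRT5, KRT14 and PKP1), and their summed signal was 24160 to 25230 in LV-shNC and 22157 to 22834 in LV-shIL-1β. Among fibroblast markers 5 of 7 lay above the filter, 0 rose and 2 fell (COL1A2 and LUM), with sums of 176 to 195 and of 139 to 154. COL1A1 did not pass on its brightest probe set, but all 4 of its probe sets above the filter lay below 0 and 2 of them were called lower. COL1A2 and LUM read above the filter value of 18.6 on every LV-shNC array and below it on every LV-shIL-1β array. Both were therefore kept only through the LV-shNC arrays, so their fall was not independent of the filter and lay among low signals. The leukocyte gene PTPRC read between 2.32 and 2.85 on the 6 arrays, far below the filter, while CD14, the only one of 4 named leukocyte markers above it, rose, and the sum of these 4 was 76.9 to 82.9 in LV-shNC and 98.6 to 100.4 in LV-shIL-1β. Of 4 endothelial markers 1 lay above the filter and did not pass the test, and the sums were 62.0 to 65.4 and 60.5 to 62.1. For GAPDH the log2 ratio of its 3′ over its 5′ control signal, which tracks RNA integrity, stood at -0.02 ± 0.03 for LV-shNC and at 0.04 ± 0.01 for LV-shIL-1β, with the 2 sets of arrays apart (exact permutation p = 0.1, the lowest that 3 against 3 arrays can reach), while that of ACTB was 0.41 ± 0.13 and 0.39 ± 0.05 (exact permutation p = 0.9). The part of these differences in the results for the hypoxia and glycolysis genes was not tested.

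Of the 33 genes above the filter, 8 rose in LV-shIL-1β and 1 fell at a limma adjusted p under 0.05 (Benjamini-Hochberg over 27566 probe sets), and 24 did not pass. The genes that rose were BNIP3, ADM, EGLN1, PFKFB3, P4HA1, HK2, TPI1 and PGAM1, and the gene that fell was ALDOC. The 9 called genes were 27.3% of the 33, while 8.52% of all 12320 genes and 7.05% of all 27566 probe sets were called. By direction, 4.03% of all genes were called higher and 4.50% lower. The median log2 fold change of the 33 genes was 0.10, beside 0.00 for all genes, and 25 of them (75.8%) lay above 0, beside 51.1% of all genes. With the sign ignored, the median was 0.11 for the 33 genes and 0.09 for all genes. The SE differed with signal, at 0.03 for the bright PGAM1 and 0.11 for the dimmest probe set of ENO1. All genes were not matched to the 33 by signal, and the part of signal in the share called was not tested. Between groups the 3 arrays did not overlap for 14 genes higher in LV-shIL-1β and 1 lower, where 15.9% and 15.7% of all genes did so in each direction. The changes were small, and 0 of the 34 measured genes passed a fold over 1.5 with an unadjusted limma p under 0.05, a rule that 0.472% of all probe sets passed. Without adjustment, 15 of the 33 genes were higher and 1 was lower at a limma p under 0.05. Of all 12320 genes, 1606 were higher and 1475 lower by this rule, 3081 in either direction. In bulk RNA of a cell line, a change in every cell cannot be told apart from a larger change in some of the cells. The count of 9 depended on single arrays, and it was 2 without LV-shIL-1β array 2, 3 without LV-shNC array 2, 3 without LV-shIL-1β array 3, and 6 without LV-shNC array 1 or LV-shNC array 3. Without LV-shIL-1β array 1 it was 9, of which 8 were shared with the full set of arrays and GPI was gained. Of the 6 without LV-shNC array 3, 5 were shared and BNIP3L was gained.

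**Figure D1:**
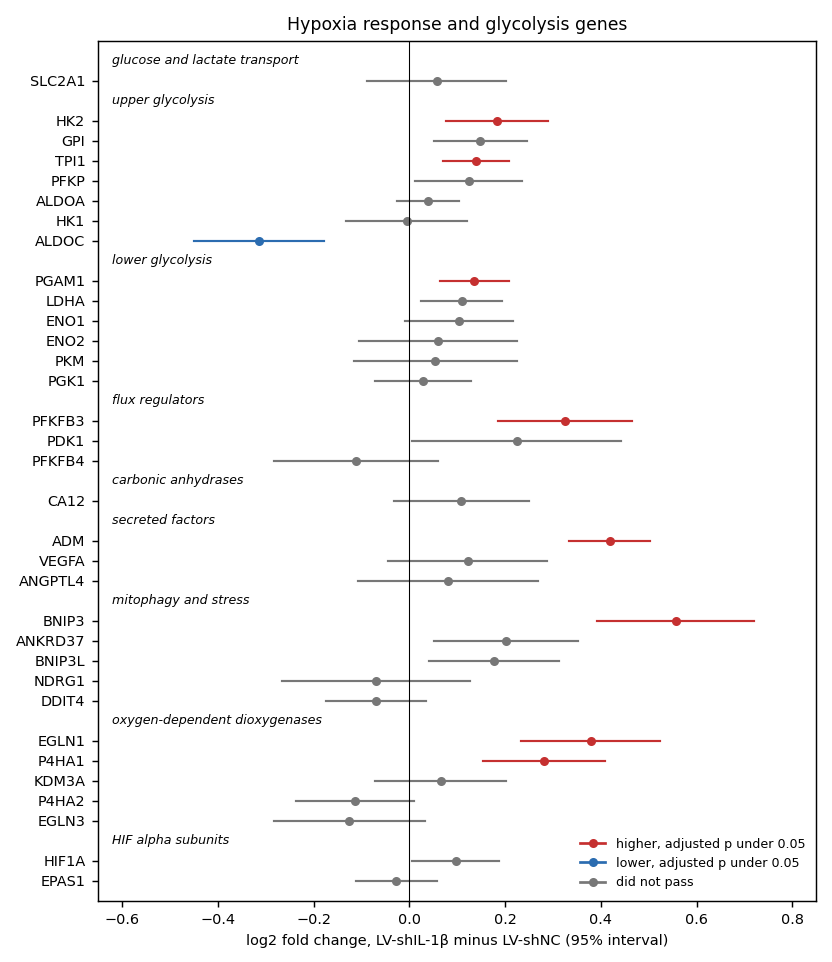
Log2 fold change (LV-shIL-1β minus LV-shNC, horizontal axis) of the 33 hypoxia response and glycolysis genes above the filter, grouped by role, with bars for the 95% interval. Red points mark the 8 genes that rose, the blue point marks ALDOC, which fell, and grey points did not pass. BNIP3 lies farthest to the right, at 0.56.

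The promoters of the genes were searched for the core of the HIF-binding element, either ACGTG or GCGTG, on both strands of the 250 bases before each transcription start in RefSeq (GRCh38.p14). Promoter entries were found for 32 of the 36 genes, 54 in all, since some genes have several starts. At least 1 of the motifs stood in 66.7% of these 54 promoters and in 43.2% of all 35116 promoters. ACGTG, with or without the other motif, stood in 40.7% and 18.5%, and GCGTG in 38.9% and 32.2%. Counted by gene, 7 of the 8 genes that rose held a motif, as did ALDOC and 17 of the 21 genes with an entry that did not pass. These are 87.5% of the genes that rose and 81.0% of those that did not pass, beside 47.4% of all 27305 genes with a promoter entry. Because CACGTG reads the same on both strands, it counts as 2 matches. The sequences of 4 genes that rose, of ALDOC, and of LDHA, which did not pass, are given 5′ to 3′ on the strand of the gene, with every match on either strand in capitals, to show how the motifs lie in them.
BNIP3, chr10:131981924-131982173, minus strand: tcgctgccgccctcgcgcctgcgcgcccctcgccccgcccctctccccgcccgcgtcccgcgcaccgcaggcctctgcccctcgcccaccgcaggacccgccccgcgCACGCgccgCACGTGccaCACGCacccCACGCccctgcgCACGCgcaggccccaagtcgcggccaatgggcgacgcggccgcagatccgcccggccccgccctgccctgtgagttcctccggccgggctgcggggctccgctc
ADM, chr11:10304823-10305072, plus strand: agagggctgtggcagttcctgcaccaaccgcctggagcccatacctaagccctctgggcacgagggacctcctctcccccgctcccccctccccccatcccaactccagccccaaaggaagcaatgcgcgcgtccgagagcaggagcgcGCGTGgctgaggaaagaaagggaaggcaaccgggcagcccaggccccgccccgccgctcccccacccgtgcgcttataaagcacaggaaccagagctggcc
EGLN1, chr1:231422288-231422537, minus strand: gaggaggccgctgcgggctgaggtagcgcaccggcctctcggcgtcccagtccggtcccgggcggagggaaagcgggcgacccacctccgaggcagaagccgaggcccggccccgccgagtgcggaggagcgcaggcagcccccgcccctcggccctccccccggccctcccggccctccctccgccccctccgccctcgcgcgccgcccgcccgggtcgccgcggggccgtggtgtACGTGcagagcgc
P4HA1, chr10:73096867-73097116, minus strand: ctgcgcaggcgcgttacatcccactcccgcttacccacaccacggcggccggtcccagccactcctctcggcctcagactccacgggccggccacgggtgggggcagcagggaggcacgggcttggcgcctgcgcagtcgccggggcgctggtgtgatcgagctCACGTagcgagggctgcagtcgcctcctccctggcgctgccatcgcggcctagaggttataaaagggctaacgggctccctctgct
ALDOC, chr17:28576896-28577145, minus strand: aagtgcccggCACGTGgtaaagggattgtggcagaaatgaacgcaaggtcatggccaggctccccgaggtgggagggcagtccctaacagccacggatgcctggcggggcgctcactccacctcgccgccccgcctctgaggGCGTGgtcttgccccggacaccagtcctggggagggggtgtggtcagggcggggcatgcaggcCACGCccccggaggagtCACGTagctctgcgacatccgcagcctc
LDHA, chr11:18394313-18394562, plus strand: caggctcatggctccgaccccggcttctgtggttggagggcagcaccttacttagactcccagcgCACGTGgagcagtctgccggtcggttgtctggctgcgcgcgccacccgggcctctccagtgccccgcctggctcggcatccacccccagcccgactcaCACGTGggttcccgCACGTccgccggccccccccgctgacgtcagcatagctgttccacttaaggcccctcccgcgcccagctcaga
BNIP3 held 6 matches, all between 143 and 104 bases before the start. ADM held 1, at 101 bases before the start, EGLN1 1, at 13 bases, and P4HA1 1, at 86 bases. ALDOC, which fell, held 5 matches, and the promoter of LDHA shown held 5 as well. PGAM1, which rose, held none in this window. A match is a description of these letters and does not show that a factor binds there.

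Glucose enters the cell through SLC2A1, the main glucose transporter of most carcinoma cells. Its signal was 336, 364 and 400.3 on the LV-shNC arrays and 381, 379 and 383 on the LV-shIL-1β arrays. The LV-shIL-1β values lay inside the range of the controls, and the log2 fold change was 0.06 ± 0.06 (SE, limma adjusted p = 0.652). The second probe set of SLC2A1 gave -0.09, and without LV-shNC array 1 the brightest one gave -0.0042, so no direction was held.

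The enzymes of glycolysis numbered 13, all above the filter, and 3 of them rose while 1 fell (30.8% called, beside 8.52% of all genes). HK2, the inducible hexokinase that traps glucose as its phosphate, read 480.5, 485 and 489 in LV-shNC and 534, 577 and 542 in LV-shIL-1β. The groups did not overlap. The increase was 13.6% (95% interval 5.51 to 22.2%), a log2 fold change of 0.18 ± 0.05 (SE, limma adjusted p = 0.0478). Both dimmer probe sets of HK2 did not pass and gave -0.13 and 0.02, and the mean of the 3 gave 0.03. HK1, the constitutive hexokinase, had a log2 fold change of -0.01 ± 0.06 (limma adjusted p = 0.966), and its sign turned with median centring (0.01). Without single arrays the limma adjusted p of HK2 was 0.107 (LV-shNC array 1), 0.132 (LV-shNC array 2), 0.113 (LV-shNC array 3), 0.182 (LV-shIL-1β array 2) and 0.11 (LV-shIL-1β array 3).

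The next steps rearrange and split the sugar. TPI1, which interconverts the triose phosphates, read 2322, 2252 and 2302 in LV-shNC and 2499.9, 2531 and 2538 in LV-shIL-1β. The spread within each group was small beside the gap between them. TPI1 rose by 10.1% (95% interval 4.92 to 15.5%), with a log2 fold change of 0.14 ± 0.03 (SE, limma adjusted p = 0.0282). A second bright probe set also rose (0.14, limma adjusted p = 0.0462), and the dimmest, near the filter, gave 0.30 (limma adjusted p = 0.0898). GPI, the isomerase after hexokinase, read 1375, 1313 and 1322 in LV-shNC and 1404, 1522 and 1519 in LV-shIL-1β. These groups did not overlap, yet GPI did not pass, at a log2 fold change of 0.15 ± 0.04 (limma adjusted p = 0.074). PFKP, the platelet-type phosphofructokinase, likewise did not overlap and did not pass (0.12, limma adjusted p = 0.176). Without LV-shIL-1β array 1, GPI passed (0.19, limma adjusted p = 0.027). TPI1 did not pass without LV-shNC array 2 (limma adjusted p = 0.11), LV-shNC array 3 (0.0849), LV-shIL-1β array 2 (0.109) or LV-shIL-1β array 3 (0.0978).

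ALDOC was the only one of the 33 genes that fell. It encodes aldolase C, the brain-type isoform of the enzyme that splits fructose bisphosphate, and is also listed among HIF targets. The signal was 134.0, 132.0 and 132.9 in LV-shNC and 112, 105 and 104 in LV-shIL-1β. The control arrays lay within a narrow range, and each LV-shIL-1β array was below all of them. The decrease was 19.6% (95% interval 11.7 to 26.7% lower), a log2 fold change of -0.31 ± 0.06 (SE, limma adjusted p = 0.015). ALDOA, the main aldolase of most tissues, gave 0.04 ± 0.03 (limma adjusted p = 0.476), and its 3 probe sets lay between 0.03 and 0.09. The single probe set of ALDOC did not pass without LV-shNC array 2 (limma adjusted p = 0.0505), LV-shNC array 3 (0.0518), LV-shIL-1β array 2 (0.0748) or LV-shIL-1β array 3 (0.0658), and its log2 fold change lay between -0.32 and -0.29 in these 4 fits.

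In the lower, energy-yielding part of the pathway 1 of 6 enzymes rose (16.7%, beside 4.03% of all genes called higher). PGAM1, a phosphoglycerate mutase, read 3137, 3181 and 3234 in LV-shNC and 3609, 3465 and 3420.4 in LV-shIL-1β, with no overlap. The log2 fold change was 0.14 ± 0.03 (SE, limma adjusted p = 0.0347), an increase of 9.84%. LDHA, which reduces pyruvate to lactate, read 5958, 6221 and 6183 in LV-shNC and 6999, 6451 and 6369 in LV-shIL-1β. The groups did not overlap, and the log2 fold change of 0.11 ± 0.04 did not pass (limma adjusted p = 0.122). The log2 fold changes of the other 4 enzymes ran from 0.03 for PGK1, a phosphoglycerate kinase, to 0.10 for ENO1, the ubiquitous enolase, with PKM, a pyruvate kinase, at 0.05 and ENO2, the neuronal enolase, at 0.06. In each of these 4 the groups overlapped. PGK1 had 6 probe sets, of which 0 were called, with values from -0.07 to 0.20. PGAM1 lost its call with each of the 6 arrays left out in turn, with limma adjusted p of 0.0868, 0.105 and 0.0771 without LV-shNC arrays 1, 2 and 3 and of 0.0655, 0.107 and 0.0664 without LV-shIL-1β arrays 1, 2 and 3.

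Flux through glycolysis is set in part by PFKFB3 and PFKFB4, which make and break fructose 2,6-bisphosphate, the activator of phosphofructokinase. PFKFB3 read 135, 127 and 144 in LV-shNC and 167, 168 and 172 in LV-shIL-1β. All LV-shIL-1β arrays were above all controls, by 25.2% on average (95% interval 13.6 to 38.0%). The log2 fold change was 0.32 ± 0.06 (SE, limma adjusted p = 0.0153). PFKFB4 gave -0.11 ± 0.08 (limma adjusted p = 0.427), with its LV-shIL-1β arrays at 76.5, 77.5 and 79.8 inside the control range of 76.2 to 89.1. PDK1, a kinase that holds back the oxidation of pyruvate in mitochondria, read 296, 316 and 350.2 in LV-shNC and 436, 356 and 335 in LV-shIL-1β. The groups overlapped and PDK1 did not pass at 0.22 ± 0.10 (limma adjusted p = 0.211), although all 3 of its probe sets lay above 0, between 0.20 and 0.23, and their mean passed (0.22, limma adjusted p = 0.0394). PFKFB3 did not pass without LV-shNC array 2 (limma adjusted p = 0.0632), LV-shIL-1β array 2 (0.0698) or LV-shIL-1β array 3 (0.0645).

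**Figure D2:**
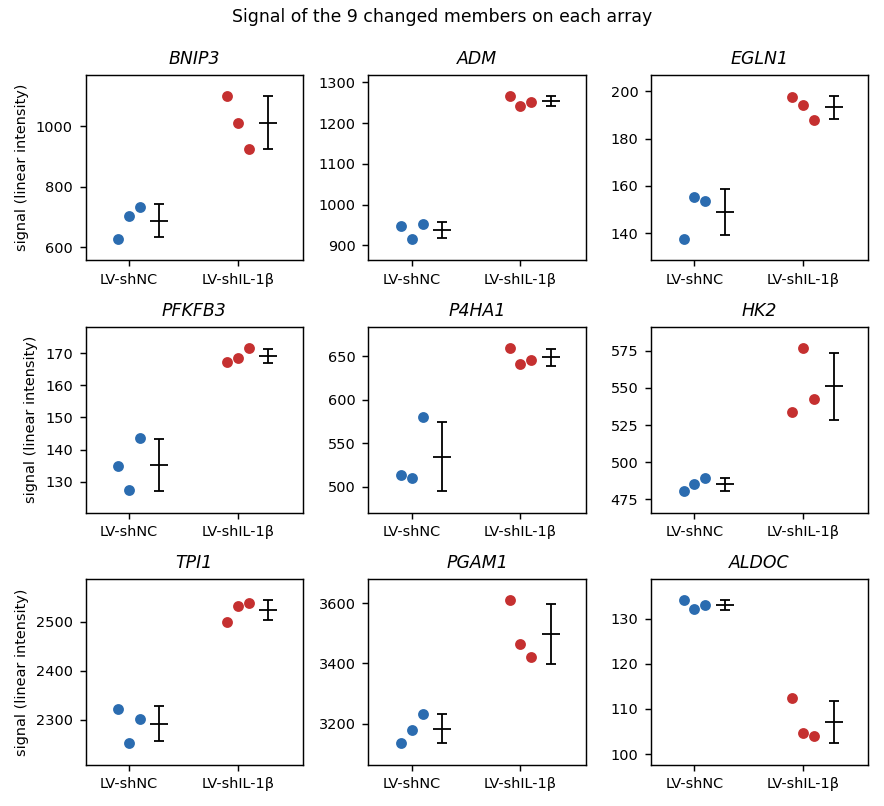
Signal (linear intensity, vertical axes that do not start at 0) of the 9 called genes on each array, with arrays 1 to 3 from left to right in each group and bars for the mean ± SD (n = 3). In all 9 panels the LV-shIL-1β arrays lie apart from the LV-shNC arrays, above them in 8 genes and below them for ALDOC.

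CA12, a carbonic anhydrase of the cell surface that handles acid from CO2, did not pass on its brightest probe set (0.11 ± 0.06, limma adjusted p = 0.345). Of its 6 probe sets above the filter, 1 dimmer one was called higher. That probe set read 43.6, 43.2 and 46.9 in LV-shNC and 53.0, 55.7 and 57.1 in LV-shIL-1β (log2 fold change 0.31 ± 0.07, limma adjusted p = 0.0336).

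Among secreted factors ADM had the smallest adjusted p of the 33 genes. ADM encodes adrenomedullin, a peptide that dilates vessels and is a well-known HIF target. The signal was 949, 916 and 951 in LV-shNC and 1267, 1243 and 1253 in LV-shIL-1β. The mean rose from 939 ± 19.8 to 1254 ± 11.9 (SD, n = 3), an increase of 33.6% (95% interval 26.0 to 41.6%) that was large beside the spread in either group. The log2 fold change was 0.42 ± 0.04 (SE, limma adjusted p = 0.000367), and the adjusted p of ADM stayed under 0.05 in the 18 alternative settings that gave it one, while its fold of 1.34 did not reach the fold rule. Those settings include other choices of probe set, which could not differ for ADM with its single probe set. VEGFA, the main endothelial growth factor, read 737, 862 and 861 in LV-shNC and 971, 832 and 872 in LV-shIL-1β. Its groups overlapped, and the log2 fold change was 0.12 ± 0.07 (limma adjusted p = 0.37), with the other 3 probe sets between -0.04 and 0.11. ANGPTL4, an inhibitor of lipoprotein lipase, gave 0.08 ± 0.08 (limma adjusted p = 0.624).

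Of the genes for mitophagy and stress, BNIP3 had the largest log2 fold change of the 33 genes. Its product sits in the outer mitochondrial membrane and recruits the autophagy machinery to mitochondria. BNIP3 read 628, 705 and 733 in LV-shNC and 1101, 1011 and 927 in LV-shIL-1β. The lowest LV-shIL-1β array was above the highest control, and the means were 689 ± 54.3 and 1013 ± 87.1 (SD, n = 3). BNIP3 rose by 47.0% (95% interval 31.2 to 64.7%), with a log2 fold change of 0.56 ± 0.07 (SE, limma adjusted p = 0.00249). The second probe set read 441, 411 and 413 in LV-shNC and 558, 543 and 544 in LV-shIL-1β and also rose (0.38 ± 0.05, limma adjusted p = 0.00205). BNIP3 passed without each of the 6 arrays in turn, at limma adjusted p of at most 0.0213.

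BNIP3L, the relative of BNIP3 that clears mitochondria from maturing red cells, read 490.2, 490.4 and 566 in LV-shNC and 581, 586 and 578 in LV-shIL-1β. The groups did not overlap, and the log2 fold change was 0.18 ± 0.06 (SE, limma adjusted p = 0.117). The second probe set of BNIP3L gave 0.19 (limma adjusted p = 0.165), and without LV-shNC array 3, the highest control, the first one passed (0.25, limma adjusted p = 0.0387). ANKRD37, an ankyrin repeat gene induced by HIF, read 66.6, 65.8 and 69.6 in LV-shNC and 73.8, 78.0 and 80.6 in LV-shIL-1β and did not pass (0.20 ± 0.07, limma adjusted p = 0.109). DDIT4, an inhibitor of mTORC1 signalling, and NDRG1, a stress-responsive gene, both gave -0.07 and did not pass (limma adjusted p = 0.415 and 0.689). NDRG1 turned to 0.04 without LV-shNC array 3, where it read 1403 beside 1105 and 1125 on the other controls.

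The oxygen-dependent dioxygenases use oxygen as a substrate. EGLN1 (PHD2), the main prolyl hydroxylase that acts on HIF alpha, read 138, 155 and 153 in LV-shNC and 197, 194 and 188 in LV-shIL-1β. The groups lay well apart, and EGLN1 rose by 30.0% (95% interval 17.6 to 43.7%). The log2 fold change was 0.38 ± 0.06 (SE, limma adjusted p = 0.0085). The other 2 probe sets above the filter gave 0.22 and 0.29 and did not pass (limma adjusted p = 0.128 and 0.155). EGLN3 (PHD3), the isoform most strongly induced by hypoxia in many cells, read 262, 267 and 287 in LV-shNC and 273, 233 and 243 in LV-shIL-1β. The log2 fold change was -0.13 ± 0.07 (limma adjusted p = 0.328), while its second probe set gave 0.13, so the probe sets of EGLN3 disagreed in sign. EGLN1 was at a limma adjusted p of 0.0506 without LV-shIL-1β array 2.

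P4HA1, the alpha subunit of collagen prolyl 4-hydroxylase, read 513, 510.3 and 581 in LV-shNC and 659, 641 and 646 in LV-shIL-1β. LV-shNC array 3 was nearest to the LV-shIL-1β arrays, without reaching them. P4HA1 rose by 21.5% (95% interval 11.3 to 32.7%), with a log2 fold change of 0.28 ± 0.06 (SE, limma adjusted p = 0.0187). P4HA2, the second alpha subunit, gave -0.11 ± 0.05 (limma adjusted p = 0.258). KDM3A, a histone demethylase induced by HIF, gave 0.07 ± 0.06 (limma adjusted p = 0.578). With the mean of its 2 probe sets, of which 1 lay below the filter, the log2 fold change of P4HA1 was 0.17 (limma adjusted p = 0.205). P4HA1 did not pass without LV-shNC array 1 (limma adjusted p = 0.0537), LV-shNC array 2 (0.0743), LV-shIL-1β array 2 (0.0769) or LV-shIL-1β array 3 (0.0639).

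The transcripts of the HIF alpha subunits did not pass the test. HIF1A read 3813, 4187 and 4185 in LV-shNC and 4461, 4279 and 4281 in LV-shIL-1β. The groups did not overlap, and the difference was 6.95% (95% interval 0.417 to 13.9%), a log2 fold change of 0.10 ± 0.04 (SE, limma adjusted p = 0.192). EPAS1, which encodes HIF-2 alpha, read 920.4, 902 and 912 in LV-shNC and 884, 909 and 891 in LV-shIL-1β, with overlap and a log2 fold change of -0.03 ± 0.04 (limma adjusted p = 0.728). HIF alpha is controlled largely as a protein, which the arrays do not measure.

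**Figure D3:**
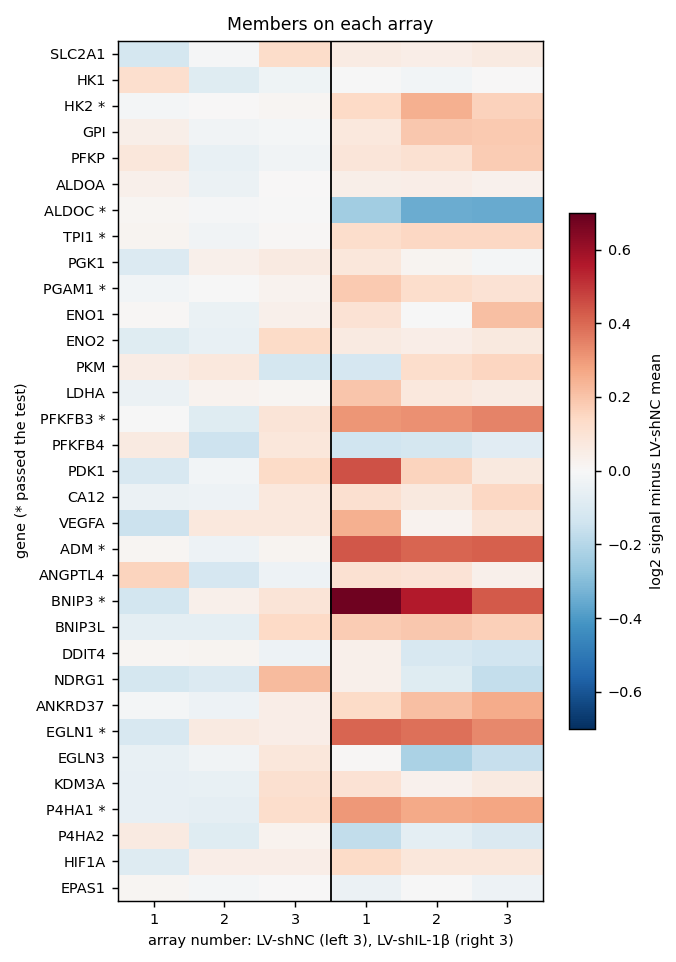
Log2 signal of the 33 genes on each array minus the LV-shNC mean of that gene (colour), with LV-shNC arrays 1 to 3 left of the black line and LV-shIL-1β arrays 1 to 3 right of it. Stars mark the 9 called genes; BNIP3, ADM, EGLN1, PFKFB3 and P4HA1 are red on all 3 LV-shIL-1β arrays and ALDOC is blue on all 3.

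The arrays of a group were not alike across these genes. LV-shNC array 3 held the highest control value for 18 of the 33 genes and the lowest for 2, where over all probe sets above the filter it was highest for 33.3% and lowest for 27.4%. LV-shNC array 1 was lowest for 16 genes and LV-shNC array 2 for 15. LV-shIL-1β array 1 was the highest of its group for 16 genes and the lowest for 10. For BNIP3L, PDK1 and P4HA1, LV-shNC array 3 was the control nearest to the LV-shIL-1β values.

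To describe how related genes differed in their change, the log2 ratio of 2 relatives was taken on each array and compared between groups. This covered 8 of 10 chosen pairs, those for which both genes lay above the filter. The pairs were chosen with earlier results of these data known. In 7 pairs the 3 ratios of one group did not overlap those of the other. All of these 7 except EPAS1 over HIF1A hold a gene that was already called, so their ratios in part restate that call. How often the ratios of other gene pairs lie apart was not computed. The differences, LV-shIL-1β minus LV-shNC, were -0.50 ± 0.08 for EGLN3 over EGLN1, -0.44 ± 0.04 for PFKFB4 over PFKFB3, and -0.39 ± 0.08 for P4HA2 over P4HA1 (SE, n = 3 arrays each). In these pairs the gene that rose is paired with one whose log2 fold change lay below 0. BNIP3L over BNIP3 gave -0.38 ± 0.09, so the difference of BNIP3 exceeded that of BNIP3L on every LV-shIL-1β array. ALDOC over ALDOA gave -0.35 ± 0.04, HK2 over HK1 0.19 ± 0.08, and EPAS1 over HIF1A -0.12 ± 0.06. ENO2 over ENO1 gave -0.04 ± 0.08 and overlapped (exact permutation p = 0.7). For the other 7 pairs the two-sided exact permutation p was 0.1, the smallest that 3 against 3 arrays allow, and 0.114 after Benjamini-Hochberg adjustment over the 8 pairs, so no pair could pass. With the mean of all probe sets of each gene the differences shrank to -0.23 for EGLN3 over EGLN1 and to 0.03 for HK2 over HK1, and that of P4HA2 over P4HA1 to -0.24.

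**Figure D4:**
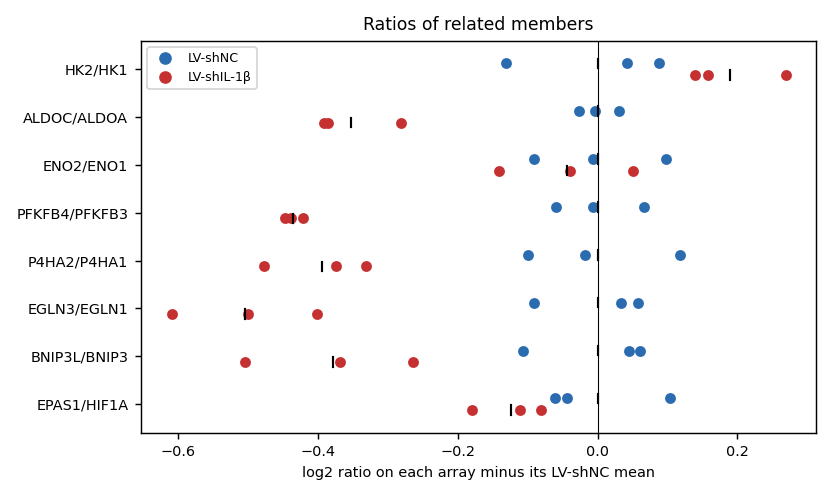
Log2 ratio of 2 related genes on each array minus the LV-shNC mean of that ratio (horizontal axis), for 8 pairs, with blue points for LV-shNC arrays, red points for LV-shIL-1β arrays and short bars for the group means. In 7 pairs the red and blue points are separate, and in ENO2/ENO1 they overlap.

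Probe sets of the same gene were compared as a check. The 34 genes had 79 probe sets, of which 68 lay above the filter. Both probe sets of BNIP3, 2 of 3 of TPI1, 1 of 3 of EGLN1 and 1 of 3 of HK2 were called higher, whereas ADM, PFKFB3, P4HA1, PGAM1 and ALDOC each had a single probe set above the filter. All 3 probe sets of PDK1 and both of BNIP3L lay above 0 without passing. SLC2A1, HK2, PGK1, ENO1, CA12, VEGFA, EGLN3 and P4HA2 had probe sets on both sides of 0. The brightest probe sets of ALDOA, TPI1 and CA12 belong to a class whose probes can also bind other transcripts.

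**Figure D5:**
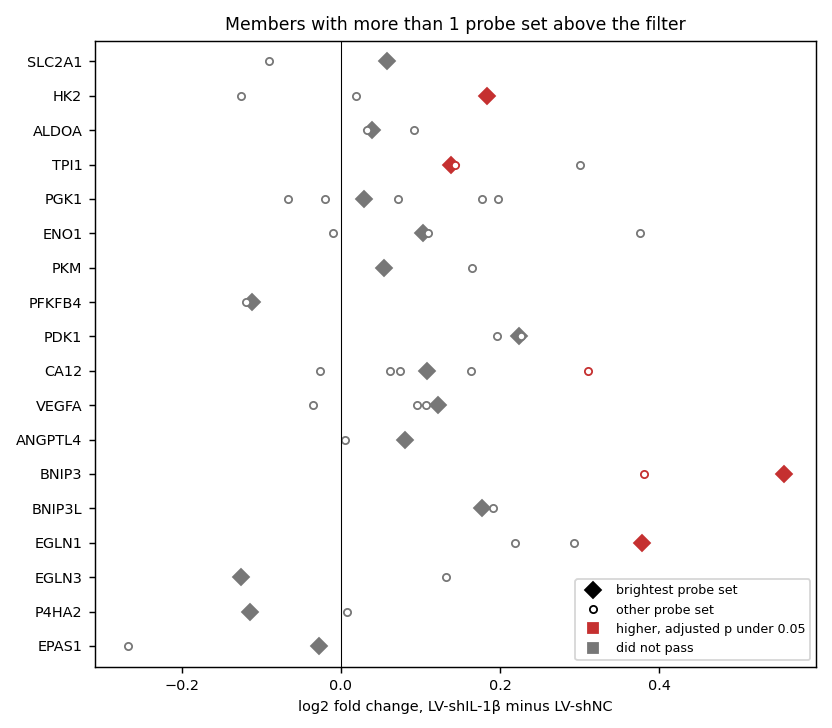
Log2 fold change (LV-shIL-1β minus LV-shNC, horizontal axis) of every probe set above the filter, for the 18 genes with more than 1, with diamonds for the brightest probe set and circles for the others. Red marks probe sets called higher, which are both of BNIP3, 2 of TPI1 and 1 each of HK2, EGLN1 and CA12.

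By position, 7 of the 33 genes lie on chromosome 10, and 4 of these rose (BNIP3, P4HA1, PFKFB3 and PGAM1) while HK1, PFKP and DDIT4 did not pass. Of all 471 genes tested on chromosome 10, 37 (7.86%) were called higher and 18 (3.82%) lower, and the median of their log2 fold changes was 0.02. The grouping on chromosome 10 was noticed after the values were seen, and it was not tested. On chromosome 21, which holds 0 of the 33 genes, 55 of 126 genes (43.7%) were called lower and 0 higher. These 55 count in the share of all genes called lower.

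Other genes of the same pathways were read from lists of 66 genes, of which 54 lay above the filter. Of these 54, 4 rose and 2 fell (11.1%, beside 8.52% of all genes), and their median log2 fold change was 0.03. Of 21 other glycolysis genes 0 were called by limma on their brightest probe set, while 1 dimmer probe set among them was called higher. At an unadjusted limma p under 0.05 there were 5 of the 21, beside 3081 of all 12320 genes. By the methods' t-test 0 passed after adjustment, and of 7 other HIF regulators and partners 1 was called by limma. STC1 and STC2 encode stanniocalcins, secreted glycoproteins induced by hypoxia. STC1 read 69.5, 63.4 and 73.7 in LV-shNC and 107, 94.4 and 112 in LV-shIL-1β and rose by 51.9% (log2 fold change 0.60 ± 0.09, limma adjusted p = 0.00368). STC2 read 145, 160.3 and 155 in LV-shNC and 209, 216 and 198 in LV-shIL-1β and rose by 35.1% (0.43 ± 0.06, limma adjusted p = 0.00389). Both stanniocalcins kept their groups well apart and passed without each single array. HIF1AN, the asparaginyl hydroxylase that blocks HIF, rose (0.28 ± 0.07, limma adjusted p = 0.0422), as did VLDLR, a lipoprotein receptor (0.26 ± 0.07, limma adjusted p = 0.0463). With the mean of probe sets HIF1AN gave 0.17 (limma adjusted p = 0.0787), STC1 gave 0.38 and still passed, and with quantile normalization VLDLR did not pass (limma adjusted p = 0.0732).

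Of the hypoxia targets that fell, TMEM45A, a transmembrane gene, read 102, 120.2 and 133.4 in LV-shNC and 97.6, 87.0 and 81.0 in LV-shIL-1β (-0.42 ± 0.10, limma adjusted p = 0.0433). CCNG2, which encodes an atypical cyclin linked to growth arrest, read 69.3, 75.0 and 68.0 in LV-shNC and 59.0, 53.7 and 54.2 in LV-shIL-1β (-0.35 ± 0.07, limma adjusted p = 0.023). Of the 4 probe sets of CCNG2 above the filter 1 was called and all 4 lay below 0, and the mean of its probe sets gave -0.18 (limma adjusted p = 0.0671) and the most variable one -0.14 (limma adjusted p = 0.632). With median centring TMEM45A did not pass (limma adjusted p = 0.0561). The groups of TMEM45A came close to each other and those of CCNG2 lay farther apart. The count of 6 other pathway genes fell to 2 without LV-shNC array 2, LV-shIL-1β array 2 or LV-shIL-1β array 3, and to 3 without LV-shNC array 3. TMEM45A lost its call when LV-shNC array 2, LV-shNC array 3, LV-shIL-1β array 2 or LV-shIL-1β array 3 was left out (limma adjusted p up to 0.159), and CCNG2 without LV-shNC array 2 or LV-shIL-1β array 2 or 3 (up to 0.103). HIF1AN lost its call with each array left out in turn except LV-shIL-1β array 1 (limma adjusted p up to 0.169), and VLDLR with each of the 6 (up to 0.128).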

How the data were processed

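Total RNA of 6 Cal27 cell samples was hybridised to Affymetrix Human Genome U133 Plus 2.0 arrays, and groups were taken from the sample titles. The values deposited by the authors are linear intensity values, with 54675 probe sets on each array. MAS5 is named in the submitters' processing notes without a version, and how it was set is not given in the sources used here. Values ran from 1.38 to 10502, and array medians lay between 18.4 and 18.9. Precision is limited by the number of arrays.

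Signals were used on the log2 scale without further normalization. The 62 control probe sets were left out, and 27566 probe sets with at least 3 of 6 arrays above the median of all values (18.6) were kept. LV-shIL-1β was set against LV-shNC in R 4.3.3 with limma 3.58.1 (lmFit, eBayes with trend, two-sided), adjusted by Benjamini-Hochberg over all kept probe sets at 0.05, and the code was tested on simulated data. A fold over 1.5 with an unadjusted p under 0.05 only approximates the criterion of the study. Intervals are 95% from limma, and ± marks the SD or the SE as stated.

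Gene names came from the platform annotation. It listed 1 symbol for 41097 probe sets, several for 1801, which named no gene here, and none for 11777. Promoter sequences and chromosomes came from RefSeq tables of GRCh38.p14, and tables were made with Python 3.11.15 (pandas 2.3.3, numpy 2.4.6). Named genes were all 36 genes of the list, IL1B, and of 66 other pathway genes at most 10 that passed. The genes, lists and pairs were chosen with earlier results of these data known. Other normalizations, filters, models, probe set choices and each array left out were tried. The methods' t-test was a pooled t-test on log2 signals, adjusted by Benjamini-Hochberg over the 27566 kept probe sets. The study names Student's t test and states no such adjustment.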

Additional observations from a re-analysis of the deposited data

How the results depend on the processing

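Of 697 alternatives for single genes, 578 kept direction and side of the threshold, 94 lost the call, 7 gained it and 18 turned sign. Only a called gene can lose its call, so the 94 all came from the 9 called genes of the list and the 6 called other pathway genes. Of 18 alternatives each, the call was lost in 0 for ADM, 10 for HK2 and 11 for PGAM1 and VLDLR. Most of the 697 belong to genes that never passed, so the 578 do not measure how steady the calls were. Both ADM and BNIP3 missed the fold rule. In the 18 other alternatives run for each, ADM kept an adjusted p under 0.05 in 18 and BNIP3 in 17, missing it with the methods' t-test (adjusted p = 0.103). ADM has a single probe set, so the alternatives that change the probe set could not test that choice for ADM. The 9 changed genes became 5 without the mean-dependent trend, 1 with the methods' t-test, 0 under the fold rule, and 2 to 9 with single arrays left out. The other pathway genes changed, 6, became 3 without a filter, 10 with array weights, 0 with the methods' t-test, 1 under the fold rule, and 2 to 5 with single arrays left out. The 1943 changed probe sets became 267 with the methods' t-test, 258 under the fold rule, and 696 to 1808 with single arrays left out. IL1B kept its call in every alternative run. The median log2 fold change of 0.10 was 0.058 without both arrays numbered 1, a setting chosen after seeing the data, and 0.08 to 0.13 with single arrays left out. In the ratios, the mean of probe sets moved HK2 over HK1 from 0.19 to 0.031, P4HA2 over P4HA1 from -0.39 to -0.24 and EGLN3 over EGLN1 from -0.50 to -0.23, and a pseudocount of 16 moved PFKFB4 over PFKFB3 from -0.44 to -0.39. With single arrays left out ENO2 over ENO1 ran from -0.091 to 0.0054.

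HK2 turned to -0.13 on its most variable probe set. SLC2A1 was -0.0048 without both arrays numbered 1, -0.016 with the mean of probe sets and -0.090 on its most variable probe set, and -0.0042 to 0.12 with single arrays left out. HK1 was 0.0087 with median centring, 0.011 with array weights and 0.051 without both arrays numbered 1, and -0.049 to 0.053 with single arrays left out. PGK1 was -0.0033 with array weights and -0.046 without both arrays numbered 1, and -0.020 to 0.059 with single arrays left out. VEGFA was -0.016 without both arrays numbered 1. EGLN3 was 0.0028 with the mean of probe sets and 0.13 on its most variable one. With single arrays left out PKM ran from -0.0068 to 0.14 and NDRG1 from -0.13 to 0.041. The causes were not tested.

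Whether same-numbered arrays were handled in pairs is not stated. They correlated at -0.39, -0.11 and -0.21 in their deviations from the group means, and arrays did not correlate best with their own number. Deviations within a group of 3 arrays depend on each other, so these values do not settle the pairing. With the replicate number as a block, 2 genes of the list (BNIP3 and ADM), 2 other pathway genes and 568 probe sets passed. With 3 arrays a group, a difference that did not pass is not shown to be absent.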
